A study of Mus musculus with 48 samples.

Results

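The subunits of the oxidative phosphorylation system were examined in 4 mouse cell populations, namely cardiomyocytes, cardiac blood endothelial cells (BECs) and lymphatic endothelial cells (LECs) from heart and from diaphragm. Members were the protein-coding genes whose mouse symbol starts with Nduf, a letter (a, b, c, s or v) and a digit, is Sdha, Sdhb, Sdhc or Sdhd, starts with Uqcr, with Cox and a digit from 4 to 8 or with Atp5, or is a mitochondrial Nd, Co, Cytb or Atp gene. Of the 54752 genes in the matrix, 98 met the rule, 85 of them encoded in the nucleus and 13 in mitochondrial DNA. By their names, 37 nuclear members belong to complex I, 4 to complex II, 8 to complex III, 18 to complex IV and 18 to complex V. The mitochondrial members belong to complex I (7), complex III (1), complex IV (3) and complex V (2). The rule leaves out the subunits Cyc1 and Ndufab1, and it includes Ndufa4 and Ndufa4l2, counted here with complex I by name although Ndufa4 is found with complex IV. All 98 were detected, and 88 of them reached 1 TPM (the deposited unit, a share of each library's transcripts) in all 48 libraries. The other 10 were Cox4i2, Cox6a2, Cox6b2, Cox7a1, Cox7b2, Cox8b, Cox8c, Ndufa4l2, mt-Nd4l and another Atp5o locus, ENSMUSG00000116933.

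Oxidative phosphorylation is the process by which mitochondria make most of the ATP of a working cell. Complexes I and II pass electrons from NADH and succinate to ubiquinone, complex III passes them on to cytochrome c, complex IV passes them to oxygen, and complex V uses the resulting proton gradient to make ATP. Complexes I, III, IV and V combine subunits from both genomes, whereas complex II is wholly nuclear. Several small subunits of complex IV exist in a heart and skeletal muscle form and in a ubiquitous form, and the beating heart is among the tissues richest in mitochondria.

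The study examined how infused angiotensin II changes the heart and its lymphatic vessels, and what a lymphangiogenic protein adds to this. C57BL/6 male mice with an IRES-eGFP cassette knocked in at the Prox1 locus gave 12 libraries per population, 4 from ctrl mice, 5 from the angII group, infused with angiotensin II, and 3 from the angII+VEGFC group. Mice of the angII+VEGFC group received angiotensin II and VEGFCc156s, a mutant of VEGFC that acts through VEGFR3, while ctrl and angII mice received bovine serum albumin in its place. Tissue was taken 5 to 6 weeks after minipump implantation. The labels give ages of 8 to 16 months for ctrl and angII mice and 8 to 15 months for angII+VEGFC mice. The methods of the study state ages in weeks, so the unit of the age is uncertain, and age entered the fits as labelled. The groups hold different mice, 13 in all, while the heart populations come from the same 12 mice, 11 of which also gave diaphragm LECs. The sort kept living cells with CD31 and without CD45.2 and divided them by eGFP, so the reporter and no lymphatic surface protein defines the LECs. Cardiomyocytes were pelleted from digested heart at low speed without a sort. The endothelial libraries were sequenced in batches 1 and 2 and all cardiomyocyte libraries in batch 3, so batch and cell type cannot be told apart where cardiomyocytes are compared with BECs.

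The summed level of 6 lymphatic markers (Prox1, Lyve1, Flt4, Pdpn, Ccl21a and Mmrn1) was 18070 to 31973 TPM in heart LECs, 22361 to 43195 in diaphragm LECs, 214 to 705 in BECs and 96.2 to 282 in cardiomyocytes. Blood endothelial markers summed to 10258 to 15039 TPM in BECs, and 10 cardiomyocyte markers summed to 18902 to 89014 TPM in cardiomyocytes. Cardiomyocyte markers were present in the sorted cells too, at 176 to 1334 TPM in heart LECs, 6.09 to 1355 in diaphragm LECs and 170 to 500.2 in BECs. The cardiomyocyte pellets in turn held 1497 to 2694 TPM of blood endothelial markers and 2371 to 6450 TPM of fibroblast markers. Erythroid markers, which include the globins, summed to 8953 to 24892 TPM in cardiomyocytes and 5220 to 31325 in BECs. They summed to 6.98 to 6531 TPM in heart LECs and 14.9 to 4874 in diaphragm LECs. TPM keeps no read count, so the depth is unknown, and the count of genes reaching 1 TPM is used in its place. This count was 16131 to 25896 in heart LECs, 12924 to 23691 in diaphragm LECs, 15076 to 21913 in BECs and 13020 to 19306 in cardiomyocytes. In such bulk libraries, fewer cells of a type and less RNA per cell cannot be told apart.

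Copies of mitochondrial DNA in the nuclear genome limit what the values of the mitochondrial members mean. The first 33 bases of mt-Nd3, which encodes a membrane subunit of complex I, are shown with those of its annotated copy Gm28438 to illustrate how alike they are. Both were read from GRCm38 and the differing base is in capitals.
mt-Nd3, chrM:9459-9491, plus strand: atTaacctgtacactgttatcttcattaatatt
Gm28438, chr1:24613087-24613119, minus strand: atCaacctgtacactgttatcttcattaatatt
Of the 345 aligned bases of this pair, 1 differed. Copies at 95% identity or more over 80% or more of their length were found for 9 of the 13 mitochondrial members, and mt-Nd1, mt-Nd6, mt-Atp8 and mt-Cytb had none. The quantification divided shared reads between a gene and its copy. The mitochondrial members held 57.0 to 64.5% of the TPM of members and copies together, a share that varied little among libraries. The member mt-Nd4l was lower than its identical copy Gm10222 and was at 0 in some libraries, so its own value is uncertain. Of the nuclear members, 23 had a near-identical copy.

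The promoters of 4 nuclear members are shown, those of Cox6a1, Cox7a1 and Cox8b for the difference between cardiomyocytes and BECs and that of Sdha for its values in treated cardiomyocytes. The sequences are the 250 bases upstream of the RefSeq start site on GRCm38.p6, with matches to any of 4 motifs in capitals. The gene positions given below come from another annotation with other start sites for Sdha, Cox6a1 and Cox7a1. By those positions the last bases of these 3 sequences, and the last match in Sdha, lie inside the gene. Sdha encodes the flavoprotein of complex II, Cox6a1 a ubiquitous complex IV subunit, and Cox7a1 and Cox8b muscle forms of complex IV subunits.
Sdha, chr13:74350241-74350490, minus strand: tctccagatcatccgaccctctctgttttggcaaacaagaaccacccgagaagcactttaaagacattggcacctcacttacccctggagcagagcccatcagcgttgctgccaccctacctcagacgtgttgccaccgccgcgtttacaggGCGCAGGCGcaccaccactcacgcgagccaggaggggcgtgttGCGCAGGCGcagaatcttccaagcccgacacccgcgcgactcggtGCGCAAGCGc
Cox6a1, chr5:115348959-115349208, minus strand: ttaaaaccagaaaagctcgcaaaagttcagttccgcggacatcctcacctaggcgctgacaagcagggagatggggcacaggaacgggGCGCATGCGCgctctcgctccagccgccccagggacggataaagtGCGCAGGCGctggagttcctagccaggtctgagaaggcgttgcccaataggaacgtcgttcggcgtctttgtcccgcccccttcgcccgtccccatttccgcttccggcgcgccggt
Cox7a1, chr7:30183921-30184170, plus strand: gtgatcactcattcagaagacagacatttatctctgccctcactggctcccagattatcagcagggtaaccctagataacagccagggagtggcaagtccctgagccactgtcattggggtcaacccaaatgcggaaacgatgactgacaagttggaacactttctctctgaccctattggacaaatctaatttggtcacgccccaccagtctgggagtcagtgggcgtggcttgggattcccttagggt
Cox8b, chr7:140900447-140900696, minus strand: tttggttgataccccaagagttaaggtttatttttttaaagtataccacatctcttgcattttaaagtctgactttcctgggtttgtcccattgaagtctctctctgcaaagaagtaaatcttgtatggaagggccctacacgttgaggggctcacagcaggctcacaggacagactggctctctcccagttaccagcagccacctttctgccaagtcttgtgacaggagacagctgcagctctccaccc
The capitals in Sdha and Cox6a1 are matches to the NRF1 motif GCGCANGCG, 3 in each gene, of which a pair in Cox6a1 overlap on opposite strands. Cox7a1 and Cox8b held no match to any of the 4 motifs in this window. A promoter was found for 66 of the 85 nuclear members. On both strands of the 300-base window, which adds 50 bases after the start, the NRF1 motif occurred in 19 of 66 members (28.8%) and in 6.47% of 27025 promoters. The windows were not chosen alike. Members had the window nearest the annotated gene start, and the 27025 promoters were the first window listed for each gene. The YY1 motif AAGATGGC occurred in 9 members (13.6%) against 2.88%, the ERR motif TGACCTTG in 4 (6.06%) against 1.53%, and the ETS motif CCGGAAGT in 5 (7.58%) against 4% of all promoters. Any of the 4 occurred in 30 members (45.5%) and in 13.7% of all promoters, and the median GC content of the windows was 57.3% in members and 52.7% in all promoters. Among ubiquitous forms not printed, Cox7a2 held 0 matches in its window and Cox8a held 2, both to the ETS motif.

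Cardiomyocytes carried the highest levels of subunits from both genomes. The nuclear members together made up 35558 to 63496 TPM in cardiomyocytes, 19597 to 26568 in BECs, 21890 to 28773 in heart LECs and 20802 to 26983 in diaphragm LECs. The cardiomyocyte libraries did not overlap with those of any endothelial population, and the 3 endothelial populations overlapped with each other. The mitochondrial members made up 134488 to 268147 TPM in cardiomyocytes and 21060 to 32853 in BECs. They spread much more widely in LECs, from 12965 to 73709 TPM in the heart and from 7282 to 32062 in the diaphragm. For each TPM of nuclear members there were thus 2.26 to 6.70 TPM of mitochondrial members in cardiomyocytes, 0.989 to 1.43 in BECs, 0.473 to 3.02 in heart LECs and 0.304 to 1.54 in diaphragm LECs. Mitochondrial members and their copies together took 22.7 to 43.5% of a cardiomyocyte library, and no more than 11.9% of any endothelial library.

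**Figure D1:**
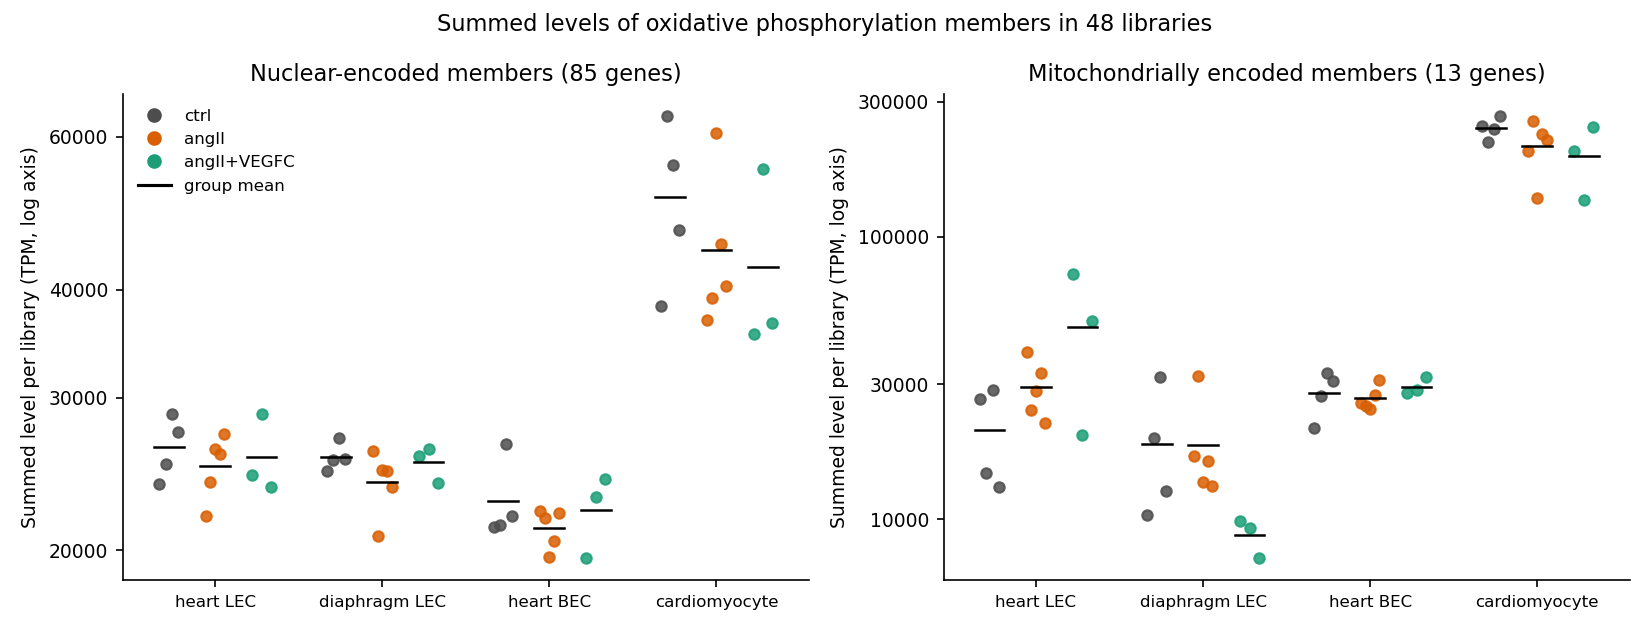
Summed TPM of the 85 nuclear members and of the 13 mitochondrial members in each of the 48 libraries, by population and treatment, on log axes, with points for libraries and lines for group means. Cardiomyocyte libraries lie above all endothelial libraries on both sums, and the mitochondrial sums of LEC libraries spread more than those of BECs.

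Within the same mouse, the nuclear sum of cardiomyocytes was a median of 1.96 times that of BECs (1.51 to 3.09), and it was higher in 12 of 12 mice. The mitochondrial sum was a median of 7.76 times that of BECs (4.71 to 11.7), again higher in 12 of 12 mice. The excess was shared by all complexes, with median ratios of the nuclear sums of 1.83 for complex I, 1.68 for complex II, 2.11 for complex III, 1.99 for complex IV and 2.12 for complex V. Because mitochondrial RNA takes so much of the cardiomyocyte total, TPM understates the nuclear excess relative to other nuclear genes. The ratio of nuclear sums was 2.62 after rescaling to genes outside mitochondrial DNA and 3.10 when the nuclear copies were also left out.

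Of the 83 nuclear members tested between cardiomyocytes and BECs, 73 were higher and 2 lower at an adjusted p under 0.05 (limma, Benjamini-Hochberg over all genes). Among all 23213 genes tested, 11.0% were higher and 65.2% lower. The median log2 difference was 0.98 for nuclear members and -0.61 for all genes. Higher members numbered 34 of 37 in complex I, 3 of 4 in complex II, 8 of 8 in complex III, 13 of 17 in complex IV and 15 of 17 in complex V, and both lower members belonged to complex IV. All 13 mitochondrial members were higher, with a median difference of 3.03 and a range of 2.69 to 3.85. The balance of calls over all genes depends on the scale, with 14.4% of called genes higher on TPM, 21.6% after rescaling without mitochondrial genes, 31.5% without their copies as well and 41.1% after quantile normalization. The median over all genes was then -0.43, -0.30 and -0.15, and the nuclear members remained above it with medians of 1.33, 1.59 and 1.58.

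The largest differences were those of the muscle forms of complex IV. Cox6a2 (chromosome 7, 128205435 to 128206387, minus strand), the heart and muscle form of subunit 6a, ranged from 1035 to 2643 TPM in cardiomyocytes with a median of 1621, and from 17.4 to 54.2 with a median of 23.98 in BECs. The groups were far apart, and the log2 difference was 5.97 (SE 0.14, adjusted p = 5.7e-21 by limma). Cox7a1 (chromosome 7, 30184144 to 30186078, plus strand), the muscle form of subunit 7a, ranged from 575 to 1448 TPM with a median of 950 in cardiomyocytes and from 19.0 to 50.9 with a median of 27.3 in BECs. Its difference was 4.98 (SE 0.13, adjusted p = 1.04e-20 by limma). Cox8b (chromosome 7, 140898945 to 140900446, minus strand), the muscle form of subunit 8, ranged from 491 to 1311 TPM with a median of 746 in cardiomyocytes and from 15.1 to 53.8 with a median of 20.8 in BECs. Its difference was 5.09 (SE 0.18, adjusted p = 4.96e-18 by limma), and all 3 genes were higher in 12 of 12 mice.

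The ubiquitous forms behaved differently from one another. Cox6a1 (chromosome 5, 115345642 to 115348981, minus strand), the counterpart of Cox6a2, ranged from 484 to 791 TPM in cardiomyocytes and from 991 to 1418 in BECs. The ranges did not overlap, cardiomyocytes were lower in 12 of 12 mice, and the log2 difference was -0.95 (SE 0.08, adjusted p = 2.32e-11 by limma). Cox7a2, the counterpart of Cox7a1, was higher in cardiomyocytes (641 ± 137 against 420 ± 38.7 TPM, SD, n = 12 each, difference 0.59). Cox8a, the counterpart of Cox8b, was at 765 ± 111 TPM in cardiomyocytes and 817 ± 98.7 in BECs, which did not pass the test (difference -0.10, SE 0.09) and was higher in 6 of 12 mice. Rescaling turned its difference positive, to 0.27 without mitochondrial genes, 0.54 without their copies as well and 0.37 after quantile normalization, each past the threshold. The related Cox7a2l, a supercomplex factor, likewise went from -0.08 (not called) to 0.29, 0.55 and 0.67.

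Expressed as a share of the pair, Cox6a2 made up 62.0 to 82.7% of Cox6a1 and Cox6a2 in cardiomyocytes and 1.59 to 3.68% in BECs. Cox7a1 made up 52.6 to 64.6% of Cox7a1 and Cox7a2 in cardiomyocytes and 4.57 to 9.64% in BECs. Cox8b made up 39.3 to 59.0% of Cox8a and Cox8b in cardiomyocytes and 1.82 to 5.52% in BECs. A share within a library does not depend on how the library was scaled. In heart LECs the muscle forms reached 0.783 to 7.03% for Cox6a2, 1.82 to 13.9% for Cox7a1 and 0.968 to 8.27% for Cox8b. The cardiomyocyte markers in these sorted libraries are given above, and their part in the low shares was not tested.

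**Figure D2:**
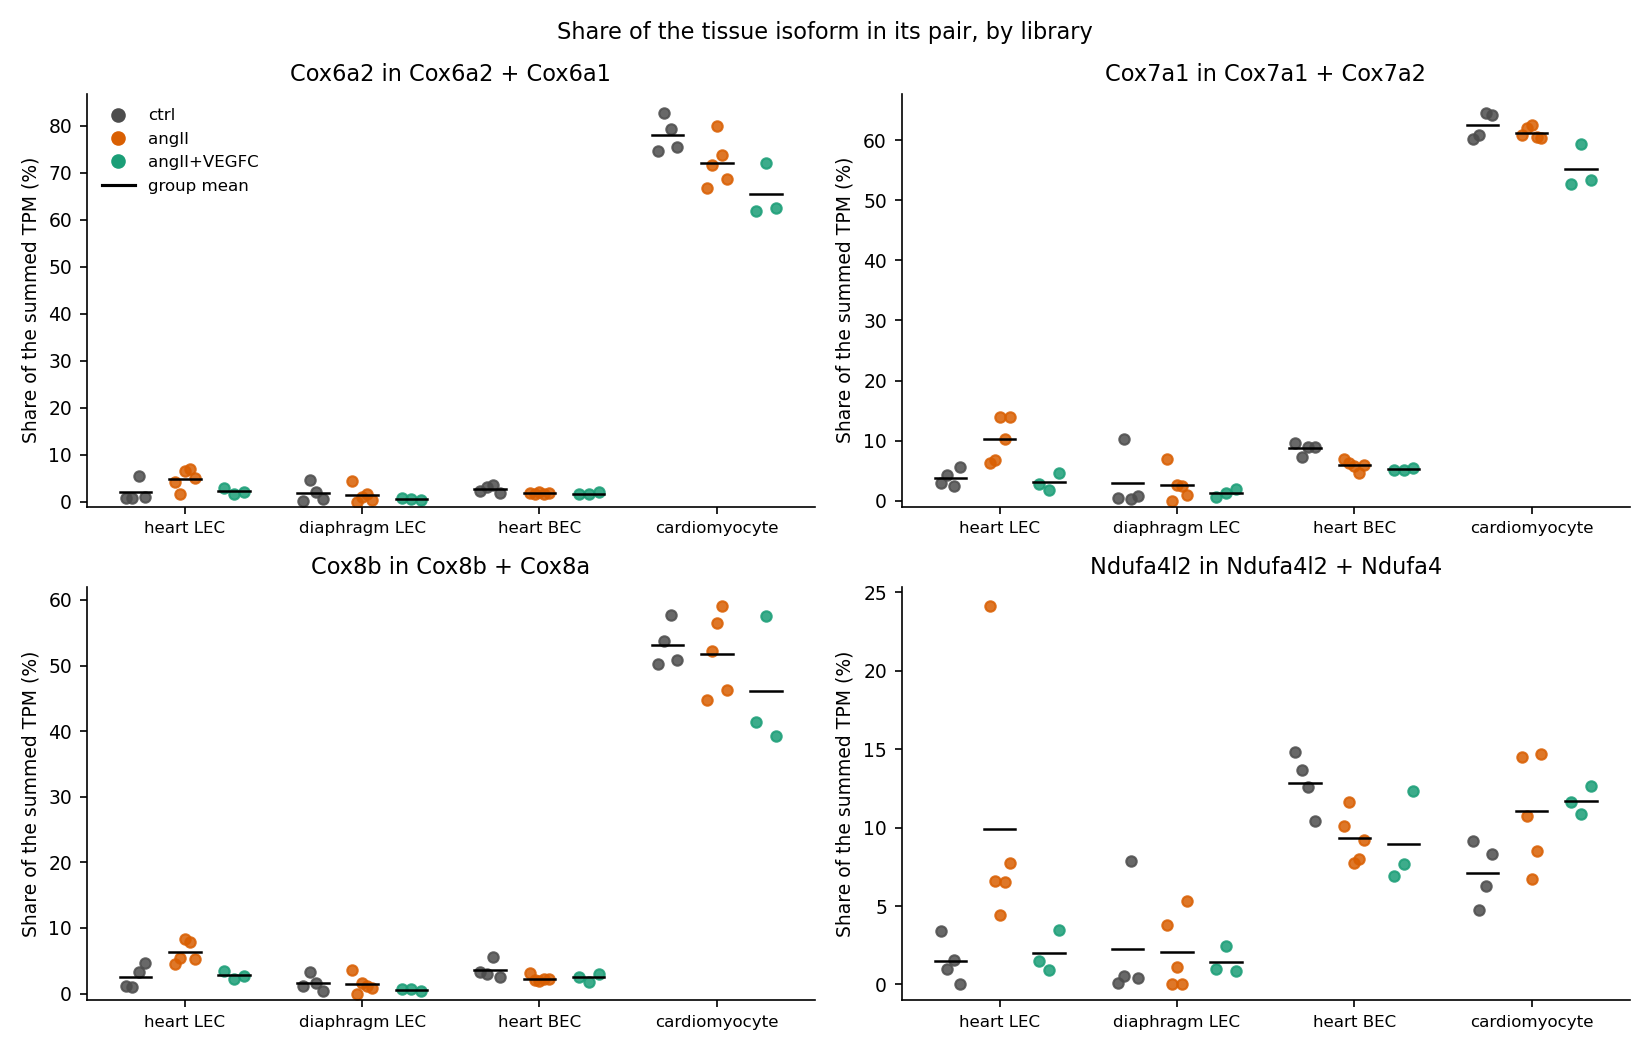
Share of Cox6a2, Cox7a1, Cox8b and Ndufa4l2 in the summed TPM of each isoform pair, in percent, by population and treatment, with points for libraries and lines for group means. Cox6a2, Cox7a1 and Cox8b exceed 39% in all cardiomyocyte libraries and stay below 14% in all endothelial libraries.

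Other isoform pairs kept their main form in cardiomyocytes. Cox4i1, the main form of the largest nuclear subunit of complex IV, was at 1370 ± 296 TPM in cardiomyocytes and 843 ± 72.1 in BECs (difference 0.67). Cox4i2, its hypoxia-linked form, was at 44.3 ± 10.1 and 29.3 ± 11.1 TPM (difference 0.64). Cox6b1 (784 ± 209 against 475 ± 76.6 TPM, difference 0.69) and the low Cox6b2 (6.16 ± 4.08 against 2.37 ± 1.37 TPM, difference 1.01) were also higher. Cox7b was higher as well (352 ± 90.5 against 116 ± 16.2 TPM, difference 1.57), while Cox7b2 was near the detection limit (0.833 ± 1.03 against 1.97 ± 1.48 TPM, difference -0.68, adjusted p = 0.0293 by limma). Cox7b2 was not called after any rescaling or quantile normalization, with no filter, in ctrl libraries alone or in 6 of the 24 fits that each left out 1 library. Ndufa4 (965 ± 270 against 441 ± 47.1 TPM, difference 1.09) and its paralog Ndufa4l2 (98.9 ± 17.6 against 52.1 ± 16.3 TPM, difference 0.96) were both higher. In ctrl libraries alone, Cox4i2 (0.35), Cox6b2 (0.38) and Ndufa4l2 (0.30) had smaller differences and were not called (adjusted p = 0.0816, 0.254 and 0.07 by limma). Cox8c, expressed mainly in testis, stayed at 1.14 TPM or less in cardiomyocytes and at 0.855 or less in BECs, and was not tested there.

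In complex V, the 3 genes for the c subunit of the membrane ring differed to unequal degrees. They encode the same mature protein with different leader peptides. Atp5g1 was at 1800 ± 509 TPM in cardiomyocytes and 324 ± 47.4 in BECs (difference 2.44, SE 0.13, adjusted p = 5.71e-15 by limma), and the groups did not overlap. Atp5g3 followed with 1119 ± 262 against 417 ± 17.8 TPM (difference 1.39). Atp5g2, with 261 ± 52.9 against 235 ± 30.4 TPM (difference 0.14), did not pass the test. Atp5b, the catalytic beta subunit and the most abundant nuclear member of complex V, was at 1707 ± 464 against 886 ± 59.9 TPM (difference 0.90). Atp5s, counted with complex V by its name only, was the least abundant of those tested. It was at 15.9 ± 4.10 against 17.2 ± 5.23 TPM (difference -0.09, not called).

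The median difference was 0.98 in complex I (range -0.046 to 1.69), 0.58 in complex II (0.14 to 1.17) and 1.18 in complex III (0.38 to 1.55). Sdhb, the iron-sulfur subunit of complex II, was at 448 ± 114 against 193 ± 12.1 TPM (difference 1.17), and Sdhc, a membrane anchor, at 130 ± 38.2 against 83.2 ± 16.4 TPM (difference 0.62). Sdha did not pass the test (164 ± 54.0 against 142 ± 13.2 TPM, difference 0.14, SE 0.11). Uqcr11, a small subunit of complex III, was at 1516 ± 293 against 628 ± 72.8 TPM (difference 1.25), and the core subunit Uqcrc2 at 125 ± 37.3 against 92.5 ± 10.1 TPM (difference 0.38). The other uncalled members were Ndufc2, Ndufa7 and Ndufa8 of complex I. Among mitochondrial members, mt-Co1, the catalytic core of complex IV, was at 33733 ± 8853 against 4611 ± 553 TPM (difference 2.83, SE 0.13), and mt-Nd4l, the lowest, at 229 ± 62.9 against 26.7 ± 24.2 TPM (difference 3.85, SE 0.56). The members without a copy were higher too, as mt-Cytb shows with 15532 to 34236 TPM in cardiomyocytes and 2480 to 3903 in BECs (difference 3.05, SE 0.12).

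**Figure D3:**
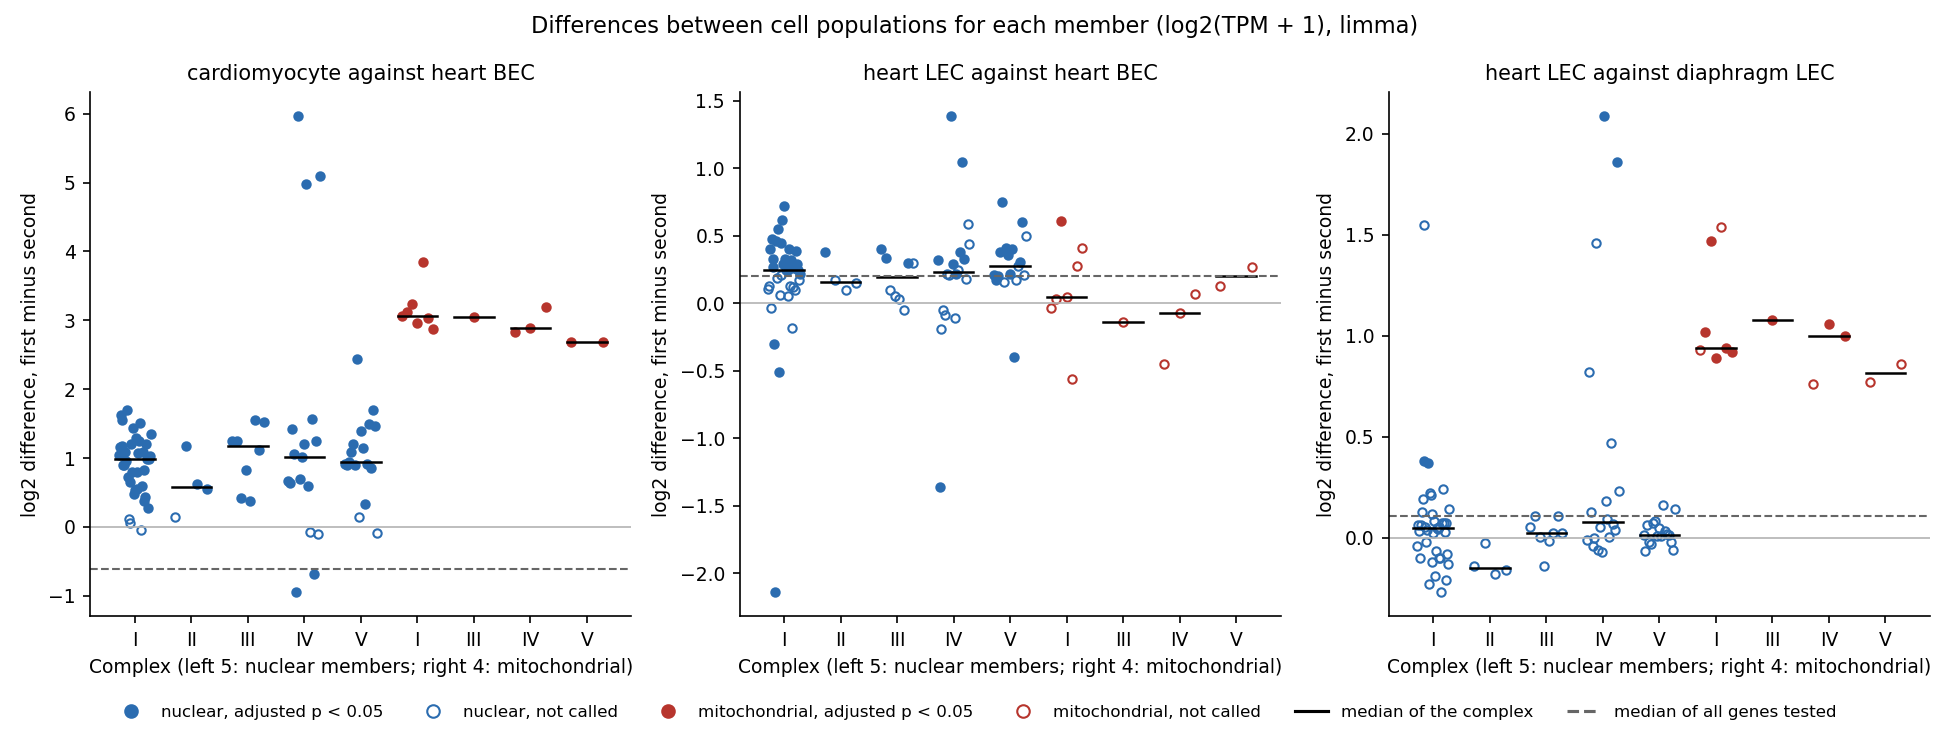
Log2 difference of each member between populations on the log2(TPM + 1) scale, by complex and genome, for cardiomyocytes against BECs, heart LECs against BECs and heart LECs against diaphragm LECs. Filled points passed the test and open points did not, solid lines are medians of the complex and dashed lines medians of all genes, and the muscle forms of complex IV stand out in the first comparison.

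Genes around the subunits did not follow them as a block. Of 43 assembly factors, 12 were higher and 21 lower in cardiomyocytes than in BECs (median -0.24), and of 78 mitochondrial ribosomal proteins 16 were higher and 33 lower (median -0.19). The carrier cytochrome c (Cycs, 1.24) and the omitted subunits Cyc1 (0.88) and Ndufab1 (1.46) were all higher. Of 13 tricarboxylic acid cycle enzymes, 9 were higher and 1, Suclg2, lower (-0.48), with a median of 0.52. Of 13 regulators of mitochondrial genes, 4 were higher, namely the coactivators Ppargc1a (1.97), Ppargc1b (1.30) and Perm1 (2.75) and the receptor Esrra (0.89). Another 5 were lower, namely Nrf1 (-1.62), Gabpa (-1.16), Gabpb1 (-1.70), Yy1 (-1.24) and the mitochondrial polymerase Polrmt (-0.73). All these log2 differences are to be read against the median of -0.61 over all genes, and the counts against 11.0% of all genes higher and 65.2% lower.

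Heart LECs and heart BECs were next compared within the endothelium. Of 84 nuclear members tested, 43 were higher in heart LECs and 5 lower, while 13% of all 29402 genes were higher and 10.0% lower. The median difference was small, 0.25 for nuclear members and 0.20 for all genes. Over all genes 56.4% of calls were higher in heart LECs on TPM and 41.2% after quantile normalization, where the median over all genes was 0.06. The higher members were spread over complexes I (21), II (1), III (3), IV (7) and V (11). Within the same mouse the nuclear sum of heart LECs was a median of 1.21 times that of BECs and was higher in 10 of 12 mice. The count of higher members fell to 7 in ctrl libraries alone and to 9 in batch 1 alone, fits with fewer samples. Over all genes, 723 were higher and 1075 lower in ctrl libraries alone, so 40.2% of calls were higher, with a median of 0.06. In batch 1 alone 1541 were higher and 1550 lower.

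The higher members included small subunits with high levels. Atp5e, the epsilon subunit of complex V, ranged from 484 to 823 TPM in heart LECs with a median of 562 and from 209 to 543 in BECs with a median of 366. It was higher in 12 of 12 mice (difference 0.75, SE 0.10, adjusted p = 1.61e-06 by limma). Ndufa7 (485 ± 59.9 against 331 ± 42.5 TPM, difference 0.55) and Ndufb4 (119 ± 24.6 against 72.4 ± 19.5 TPM, difference 0.72), accessory subunits of complex I, were also higher in 12 of 12 mice. The largest differences were those of the low isoforms Cox6b2 (10.5 ± 7.77 against 2.37 ± 1.37 TPM, difference 1.39, SE 0.42) and Cox7b2 (5.30 ± 3.37 against 1.97 ± 1.48 TPM, difference 1.05, SE 0.33). Cox6b2 was not called with a pseudocount of 0.1, in ctrl libraries alone or in batch 1 alone, and Cox7b2 was not called after quantile normalization (0.72), in ctrl libraries alone (1.24) or in batch 2 alone (0.51).

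The 5 lower members were Ndufa4l2, Cox4i2, Ndufa8, Atp5j and Ndufa4. Ndufa4l2 (chromosome 10, 127514967 to 127517154, plus strand), a paralog of Ndufa4 that is induced in hypoxia, ranged from 0 to 80.5 TPM in heart LECs with a median of 12.4 and from 29.9 to 76.2 in BECs with a median of 50.1. It was lower in 11 of 12 mice, and its difference was -2.14 (SE 0.41, adjusted p = 0.00025 by limma). Cox4i2 (chromosome 2, 152754173 to 152765037, plus strand) ranged from 0 to 47.9 TPM with a median of 10.2 in heart LECs and from 15.8 to 45.4 with a median of 27.9 in BECs (difference -1.36, SE 0.36). Both ranges overlapped between populations. Ndufa8, an accessory subunit of complex I, was lower in 12 of 12 mice (200 ± 33.2 against 283 ± 37.1 TPM, difference -0.51), and Atp5j, coupling factor 6 of complex V, in 11 of 12 (607 ± 48.3 against 800 ± 76.0 TPM, difference -0.40). Ndufa4 differed by -0.30. In ctrl libraries alone, Cox4i2 (-1.11), Ndufa8 (-0.48) and Ndufa4 (-0.23) were not called, and in batch 1 alone Cox4i2 (-0.56) and Ndufa4 (-0.28) were not. The muscle forms Cox6a2, Cox7a1 and Cox8b did not pass the test over all libraries. Cox7a1 passed in ctrl libraries alone (-1.06, adjusted p = 0.0423 by limma), and Cox8b passed without the heart LEC library of ctrl mouse 1 or 5 (0.73 and 0.75, adjusted p = 0.0349 and 0.028 by limma).

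The mitochondrial members did not differ between heart LECs and BECs as a group, with a median difference of 0.05 and a within-mouse ratio of 1.06 (higher in 6 of 12 mice). The only call was mt-Nd3 (1364 ± 978 against 770 ± 188 TPM, difference 0.61, SE 0.22, adjusted p = 0.042 by limma). This call was lost in 15 of the 24 fits that each left out 1 library, with differences of 0.48 to 0.74, and the difference was -0.13 in ctrl libraries alone. Among the related lists used above, 8 assembly factors, 15 mitochondrial ribosomal proteins and 3 regulators were higher in heart LECs. So were 1 tricarboxylic acid cycle enzyme and 1 of Cycs, Cyc1 and Ndufab1, while 2 ribosomal proteins and 1 regulator were lower. These counts are to be read against 13% of all genes higher and 10.0% lower. Whether any list exceeded these shares was not tested.

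The LECs of the heart and the diaphragm differed mainly in the mitochondrial members. Of the 13, 8 were higher in heart LECs and 0 lower (median difference 0.94, range 0.76 to 1.54), while 1.79% of all 31319 genes were higher and 1.39% lower, with a median over all genes of 0.11. Over all genes 56.3% of calls were higher in the heart. Within the same mouse, the mitochondrial sum of heart LECs was a median of 2.09 times that of diaphragm LECs (0.752 to 7.51), and it was higher in 9 of 11 mice. For mt-Nd3, heart LECs ranged from 467 to 4119 TPM with a median of 1069 and diaphragm LECs from 135 to 1277 with a median of 373. It was higher in 11 of 11 mice (difference 1.47, SE 0.30, adjusted p = 0.00309 by limma). The catalytic mt-Co1 ranged from 1218 to 8677 and from 600 to 5014 TPM and did not pass the test (difference 0.76, SE 0.30).

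These calls depended on few libraries. The number of mitochondrial members called ranged from 3 (without the heart LEC library of angII+VEGFC mouse 8) to 11 when each library was left out in turn. It was 4 or 5 without the heart LEC library of angII mouse 3 or 15, or without the diaphragm LEC library of ctrl mouse 1 or 11, angII mouse 14 or 18, or angII+VEGFC mouse 2, 6 or 8. It was 0 in ctrl libraries alone, 0 in batch 1, 4 in batch 2, and 2 with no filter on low values. The nuclear sum did not share the difference, with a within-mouse ratio of 1.05 (higher in 6 of 11 mice) and a median log2 difference of 0.04.

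Of 84 nuclear members, 4 were higher in heart LECs than in diaphragm LECs and 0 lower, with 12 higher and 1 lower at an unadjusted p under 0.05, beside 8.95% and 4.96% of all genes. Cox7a1 ranged from 10.9 to 87.9 TPM in heart LECs with a median of 24.4 and from 0 to 49.97 in diaphragm LECs with a median of 4.81 (difference 2.09, SE 0.44, adjusted p = 0.00393 by limma). Cox8b ranged from 8.90 to 80.8 TPM with a median of 40.8 and from 0 to 32.9 with a median of 9.44 (difference 1.86, SE 0.42, adjusted p = 0.00758 by limma). Both overlapped between the tissues and were higher in 9 of 11 mice. Cox6a2, with 38.7 ± 27.5 against 17.3 ± 19.7 TPM, did not pass the test (difference 1.46, SE 0.52) but did without the diaphragm LEC library of ctrl mouse 5 (1.76, adjusted p = 0.032 by limma). In ctrl libraries alone, Cox7a1 (1.64) and Cox8b (0.85) were not called, nor were they in batch 1 alone (2.15 and 1.67), and Cox8b was not called with a pseudocount of 0.1. The 10 cardiomyocyte markers differed in the same direction, with a median sum of 402 TPM in heart LECs and 40.2 in diaphragm LECs, while the skeletal muscle markers ran the other way (46.0 and 90.5 TPM). Whether these cells account for the muscle forms was not tested.

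The other calls were Ndufa4 (difference 0.38) and Ndufa8 (0.37). Among the differences below 0 were those of the complex I subunits Ndufa9 (-0.23) and Ndufs8 (-0.21), neither of which passed the test. Among related genes, 2 regulators and 1 mitochondrial ribosomal protein were lower in heart LECs, beside 1.39% of all genes, and 0 genes of the other related lists passed the test. Without the diaphragm LEC library of angII mouse 18 or that of angII+VEGFC mouse 2, the count of nuclear members called fell to 2.

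The effect of treatment was examined in each population by 3 comparisons, angII with ctrl, angII+VEGFC with angII, and angII+VEGFC with ctrl. No member passed an adjusted p of 0.05 in any of the 12 comparisons by limma, and the numbers at an unadjusted p under 0.05 are given with each population. Few other genes passed in these fits. The share of all genes called was 0.0261% for angII against ctrl in heart LECs, 0.0892% for angII against ctrl in cardiomyocytes, 0.663% for angII+VEGFC against ctrl in cardiomyocytes, and 0 in the other 9 comparisons. The number of genes called depended on the fit. With the count of genes reaching 1 TPM as a covariate, 438 were higher and 35 lower in cardiomyocytes for angII against ctrl. With the first residual component as a covariate, 462 were higher and 58 lower in diaphragm LECs for angII against ctrl. With no filter on low values, both comparisons had 0. The study modelled counts with surrogate technical variables and reported significant changes with angiotensin II in every population. The comparisons within a population share libraries, so their results are not independent.

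In heart LECs, angII libraries had the highest levels of several low isoforms of the nuclear list. Ndufa4l2 was at 14.4, 3.06, 6.91 and 0 TPM in ctrl libraries, at 80.5, 20.7, 18.7, 27.1 and 31.0 in angII libraries, and at 5.44, 3.82 and 10.4 in angII+VEGFC libraries. All angII libraries were above all others. The difference of angII from ctrl was 2.88 (SE 0.58, adjusted p = 0.114 by limma) and that of angII+VEGFC from angII was -2.47 (SE 0.69, adjusted p = 0.413 by limma), so neither passed the test.

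Cox7a1 showed the same order. It was at 15.8, 20.6, 13.7 and 28.2 TPM in ctrl libraries, at 30.3, 29.8, 71.5, 62.8 and 87.9 in angII libraries, and at 12.5, 10.9 and 20.4 in angII+VEGFC libraries. The angII libraries again did not overlap with either other group, with differences of 1.46 from ctrl (SE 0.31, adjusted p = 0.134 by limma) and of -1.97 for angII+VEGFC from angII (SE 0.37, adjusted p = 0.273 by limma). In batch 1 the angII libraries had 29.8 to 71.5 TPM and the ctrl libraries 13.7 to 15.8, and in batch 2 they had 62.8 to 87.9 and 20.6 to 28.2.

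Cox8b was at 11.5, 8.90, 47.5 and 45.7 TPM in ctrl libraries, at 37.6, 43.8, 80.8, 60.2 and 55.0 in angII libraries, and at 37.7, 23.9 and 22.4 in angII+VEGFC libraries, with overlap between ctrl and angII (difference 0.99). Cox4i2 was at 17.8, 7.48, 47.9 and 7.86 TPM in ctrl, at 41.5, 17.7, 8.70, 13.8 and 11.6 in angII, and at 0, 4.35 and 5.59 in angII+VEGFC libraries. The angII+VEGFC libraries were the lowest, but the differences from angII (-2.36, SE 0.66) and from ctrl (-2.29, SE 0.64) did not pass the test. Cox7a2l was lower in angII without overlap (114 ± 22.4, n = 5, against 173 ± 23.0 TPM, n = 4, difference -0.66), also short of the threshold.

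Some markers of other cell types moved with these isoforms in heart LECs. The cardiomyocyte markers summed to 176 to 507 TPM in ctrl, 228 to 1334 in angII and 213 to 425 in angII+VEGFC libraries. The blood endothelial markers summed to 1973 to 3106, 3019 to 6857 and 2225 to 2766 TPM, of which Fabp4 had medians of 977, 2649 and 975 TPM. The other blood endothelial markers (Flt1, Nos3, Cdh5, Pecam1 and Emcn) overlapped among groups, and Emcn had its lowest median in angII (649, 567 and 590 TPM). Erythroid markers, which include the globins, summed to 6.98 to 2186, 2063 to 6531 and 12.2 to 575 TPM. The fibroblast marker sum overlapped among groups, and its genes went in different directions. Col1a2 (2.22 to 12.4, 35.3 to 92.4 and 4.78 to 17.1 TPM) and Col3a1 were highest in angII without overlap. Col1a1 and Lum had their highest medians in angII, with overlap. Dcn (medians of 1196, 695 and 1108 TPM) and Pdgfra (65.5, 38.9 and 63.1 TPM) had their lowest medians in angII. Skeletal muscle markers summed to 10.3 to 105, 44.0 to 137 and 31.4 to 47.9 TPM. The part of these cell types in the angII values was not tested.

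At an unadjusted p under 0.05, 5 nuclear members were higher and 3 lower in angII against ctrl in heart LECs, beside 8.94% and 1.93% of all genes, with a median of -0.05 for nuclear members and 0.23 for all genes. In the related lists, the assembly factor Ndufaf6 was higher in angII (18.1 ± 3.23, n = 5, against 3.95 ± 5.41 TPM, n = 4, difference 2.88, SE 0.45, adjusted p = 0.0293 by limma). This call was lost with a pseudocount of 0.1, no filter, no covariates, quantile normalization, only the 2 groups compared, or detected genes as a covariate (adjusted p = 0.0934 to 0.19 by limma). It was also lost in 10 of the 12 fits that each left out 1 library, and held without ctrl mouse 1 or angII mouse 12.

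The mitochondrial members of heart LECs were high in 2 of the 3 angII+VEGFC libraries. Their sum was 26650, 14517, 28534 and 12965 TPM in ctrl libraries, 39067, 24346, 28311, 32846 and 21874 in angII libraries, and 73709, 19927 and 50344 in angII+VEGFC libraries. The libraries of mice 2 and 8 were above all others and that of mouse 6 lay among the ctrl values. At an unadjusted p under 0.05, 11 of 13 members were higher in angII+VEGFC than in ctrl, beside 1.73% of all genes, but the smallest adjusted p was 0.915. The median difference was 1.12, with -0.13 for all genes. Without mouse 6, 8 members passed the test, led by mt-Nd3 (2.39, SE 0.30, adjusted p = 0.00593 by limma). Mouse 6 is the only angII+VEGFC library of batch 1, so within batch 1 the sum was 19927 TPM against 26650 and 28534 in ctrl, and within batch 2 it was 50344 and 73709 against 12965 and 14517. Against angII, 2 of 13 members were higher at an unadjusted p under 0.05, beside 1.09% of all genes (median 0.55).

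In diaphragm LECs, the angII+VEGFC libraries had the lowest mitochondrial sums. These were 10317, 19311, 31784 and 12619 TPM in ctrl, 16705, 32062, 13562, 15998 and 13077 in angII, and 9811, 9270 and 7282 in angII+VEGFC libraries, without overlap with either group. At an unadjusted p under 0.05, 8 of 13 members were lower against ctrl, beside 0.390% of all genes, and 8 of 13 against angII, beside 7.66%. The median differences were -0.84 and -0.85, and those of all genes 0.05 and -0.21. For mt-Co1, ctrl libraries had 1478, 3209, 4954 and 1795 TPM, angII libraries 2836, 5014, 2316, 2373 and 1942, and angII+VEGFC libraries 856, 1421 and 600. The angII+VEGFC libraries were below all ctrl and angII libraries. Its differences were -1.41 from ctrl and -1.46 from angII (SE 0.39 and 0.38, adjusted p = 1.0 and 0.567 by limma). The next by p were mt-Co3 (-0.98) and mt-Cytb (-1.01) against ctrl, and mt-Atp6 (-0.79) and mt-Co2 (-0.85) against angII. Leukocyte and cardiomyocyte markers were also low in the angII+VEGFC libraries, but overlapped with ctrl. Leukocyte markers summed to 10.4 to 28.6 TPM there, 63.9 to 262 in angII and 19.5 to 162 in ctrl, and cardiomyocyte markers to 7.96 to 41.0, 28.4 to 1355 and 6.09 to 670 TPM. Fibroblast markers (275 to 400, 317 to 1203 and 145 to 1060 TPM) and erythroid markers (437.5 to 622, 338 to 4874 and 14.9 to 834 TPM) overlapped with both groups. The part of these cells in the mitochondrial values was not tested.

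Whether the response to VEGFCc156s differed between the LECs of the 2 tissues was tested as a difference of differences. For angII+VEGFC against angII, 12 of 13 mitochondrial members had a higher difference in heart than in diaphragm LECs at an unadjusted p under 0.05, beside 2.00% of all genes. The median was 1.44, and mt-Co1 was at 2.16 (SE 0.51, adjusted p = 0.665 by limma), so no member passed. The heart side rested on few libraries. In heart LECs, the median difference of angII+VEGFC from angII was 0.55 with all libraries, -0.054 without angII+VEGFC mouse 2, 1.31 without mouse 6 and 0.89 without angII mouse 3. For the difference between tissues, 7 members reached an unadjusted p under 0.05 without the heart LEC library of mouse 2 (median 1.04), and 1 member, mt-Atp6 (2.11, adjusted p = 0.0398 by limma), passed the test without that of mouse 6 (median 2.01). The count of genes reaching 1 TPM was 16756 to 18884 in angII+VEGFC and 19957 to 25896 in angII libraries of heart LECs, and 14963 to 18373 and 20062 to 23691 in diaphragm LECs. Fitted with this count as a covariate, the median mitochondrial difference of angII+VEGFC from angII was 0.83 for the heart and -0.97 for the diaphragm.

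Across the 9 interactions tested, no member passed an adjusted p of 0.05. The share of all genes called was 0.00611% for the response to angII in heart against diaphragm LECs, 0.00431% for that in cardiomyocytes against BECs, and 0 in the other 7. Among nuclear members, Ndufa4l2 had the largest difference in response to angII between heart LECs and BECs (3.38, adjusted p = 0.456 by limma). In BECs its level was 73.1, 66.5, 76.2 and 52.6 TPM in ctrl and 47.1, 56.6, 29.9, 35.5 and 47.5 in angII libraries (difference -0.60, SE 0.24), the opposite direction from heart LECs.

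In BECs, differences between treatments were small. The nuclear median difference of angII from ctrl was -0.11, with -0.06 for all genes, and 8 members were lower and 0 higher at an unadjusted p under 0.05, beside 2.83% and 2.57% of all genes. Cox7a1 was at 41.9, 31.3, 50.9 and 39.8 TPM in ctrl, at 33.3, 27.7, 22.6, 19.0 and 26.8 in angII, and at 21.2, 23.5 and 25.5 in angII+VEGFC libraries. The angII+VEGFC libraries lay below all ctrl libraries and the angII libraries overlapped with ctrl at 1 value. The differences from ctrl were -0.68 (SE 0.17, adjusted p = 0.671) for angII and -0.71 (SE 0.19, adjusted p = 0.798) for angII+VEGFC, both by limma. Cardiomyocyte marker sums were 223 to 500.2 TPM in ctrl, 170 to 287 in angII and 267 to 328 in angII+VEGFC libraries. In the same order, erythroid marker sums were 5220 to 7980, 5746 to 31325 and 6948 to 12313 TPM. The part of these cells was not tested. The next members by p were Atp5k (-0.54), Cox6a2 (-0.63) in angII, and Ndufa1 (0.29) and Ndufc1 (-0.47) in angII+VEGFC against ctrl. Between angII+VEGFC and angII, Cox7b2 (1.37), Ndufa8 (0.33) and Ndufa1 (0.28) had the smallest p, with 3 nuclear members higher and 0 lower at an unadjusted p under 0.05, beside 1.47% and 1.12% of all genes.

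In diaphragm LECs, the nuclear members stayed close to ctrl. In angII against ctrl, 1 member was lower at an unadjusted p under 0.05, beside 1.45% of all genes, namely Ndufs7, a core subunit of complex I (317 ± 75.9, n = 5, against 409 ± 40.3 TPM, n = 4, difference -0.39, adjusted p = 0.324 by limma). The next were Atp5s (-0.79) and Cox6a1 (-0.31). In both comparisons with angII+VEGFC, 0 nuclear members reached an unadjusted p under 0.05.

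**Figure D4:**
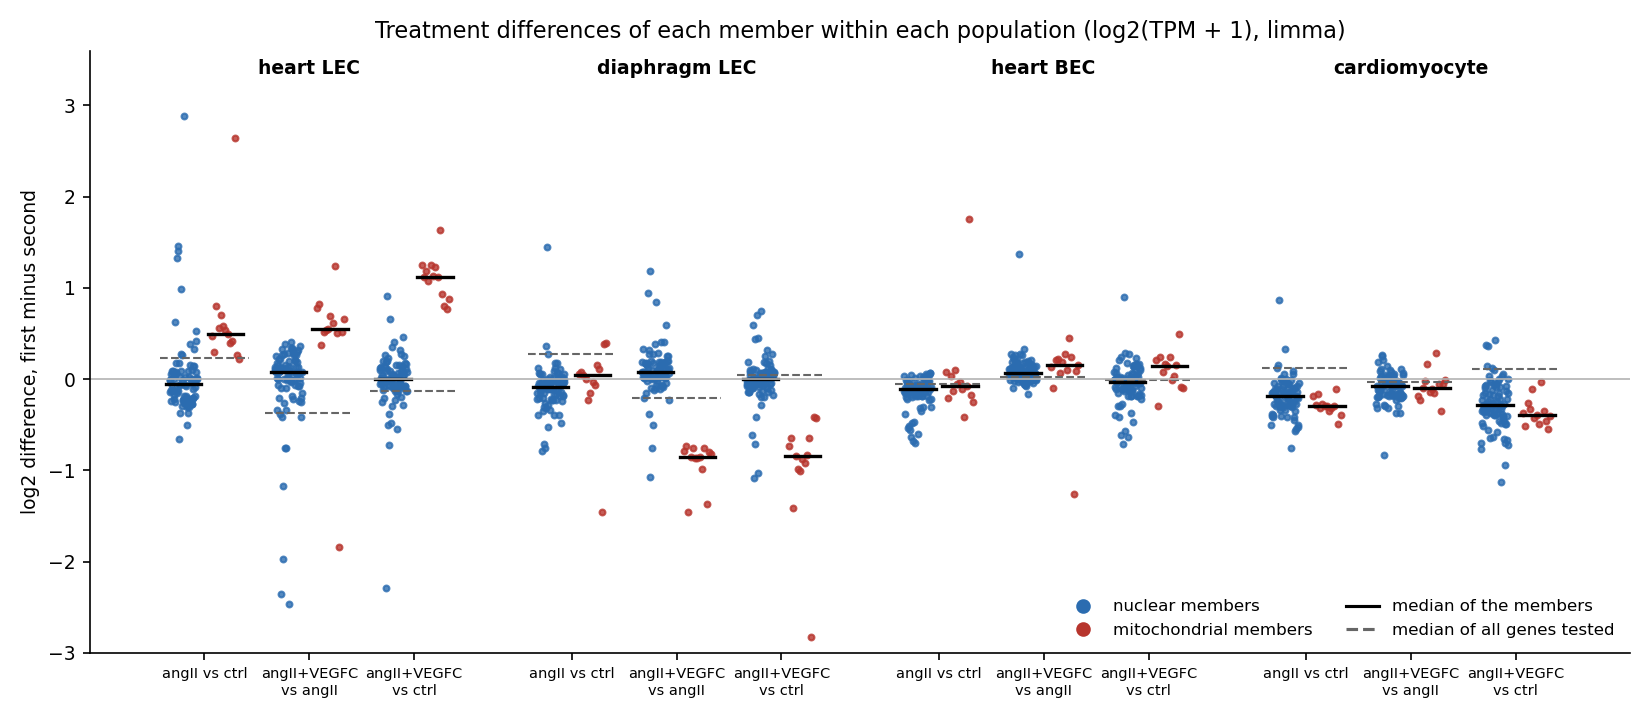
Log2 differences of the nuclear and mitochondrial members on the log2(TPM + 1) scale in the 12 treatment comparisons, by population, with solid lines for the medians of members and dashed lines for those of all genes. No member passed the test, mitochondrial members of LECs lie above 0 in the heart and below 0 in the diaphragm for angII+VEGFC against ctrl, and members of both genomes lie mostly below 0 in treated cardiomyocytes.

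In cardiomyocytes, most members were lower in both treated groups than in ctrl on TPM, while the median of all genes on TPM was higher. For angII against ctrl, 74 of 83 nuclear members and 13 of 13 mitochondrial members had a difference below 0, with medians of -0.18 and -0.29 beside 0.12 for all genes. For angII+VEGFC against ctrl, 72 of 83 and 13 of 13 were below 0, with medians of -0.28 and -0.39 beside 0.11 for all genes. The median of all genes depended on the scale. For angII it was 0.05 after rescaling without mitochondrial genes, 0.01 without their copies as well and -0.00 after quantile normalization. The corresponding values for angII+VEGFC were 0.05, 0.03 and 0.01. At an unadjusted p under 0.05, 6 nuclear members were lower and 1 higher with angII, beside 1.85% and 8.00% of all genes, and 11 were lower and 1 higher with angII+VEGFC, beside 4.70% and 8.15%. The 2 treated groups share the ctrl libraries. Compared with each other, 0 members reached an unadjusted p under 0.05, with a nuclear median of -0.07 and with Cox6b2 (-0.83), Ndufs1 (-0.37) and Sdha (-0.37) at the smallest p.

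The members with the smallest p were core subunits. Ndufs1 (chromosome 1, 63143596 to 63176833, minus strand), the largest iron-sulfur subunit of complex I, was at 115, 127, 108 and 89.2 TPM in ctrl, at 69.4, 48.8, 106, 54.7 and 45.6 in angII, and at 51.2, 56.0 and 48.01 in angII+VEGFC libraries. Except for angII mouse 14, all treated libraries lay below all ctrl libraries. The difference was -0.76 for angII (SE 0.22, adjusted p = 0.193 by limma) and -1.13 for angII+VEGFC (SE 0.25, adjusted p = 0.0528 by limma). Without angII mouse 14, Ndufs1 passed the test in both comparisons, at -0.95 (adjusted p = 0.0475 by limma) and -1.14 (adjusted p = 0.00797 by limma).

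Sdha (chromosome 13, 74322254 to 74350280, minus strand), whose promoter is printed above, was at 222, 248, 212 and 189 TPM in ctrl, at 181, 124, 222, 107 and 108 in angII, and at 134, 120 and 99.6 in angII+VEGFC libraries. The angII+VEGFC libraries did not overlap with ctrl, and angII mouse 14 again stood with ctrl. The differences were -0.57 for angII and -0.94 for angII+VEGFC (SE 0.22 and 0.25, adjusted p = 0.387 and 0.109 by limma). Atp5a1, the alpha subunit of complex V, was at 711, 954, 764 and 629 TPM in ctrl, at 568.2, 426, 804, 446 and 419 in angII, and at 436, 588 and 387 in angII+VEGFC libraries, with differences of -0.50 for angII and -0.77 for angII+VEGFC. Sdhc differed by -0.55 for angII.

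The call on these members depended on how the libraries were scaled. For angII+VEGFC against ctrl, 0 members passed on TPM, 3 after rescaling without mitochondrial genes (Ndufs1, Sdha and Atp5a1), 7 without their copies as well and 9 after quantile normalization. The added members were Sdhc, Atp5b, Uqcrfs1 and Uqcrc2, and then Ndufv1 and Ndufa10. The share of all called genes that were higher moved with these settings from 58.7% to 39.2%, 27.9% and 40.8%. For angII against ctrl, 1 member (Ndufs1, -0.94) passed after quantile normalization only. None of these settings changed the direction of the members named.

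**Figure D5:**
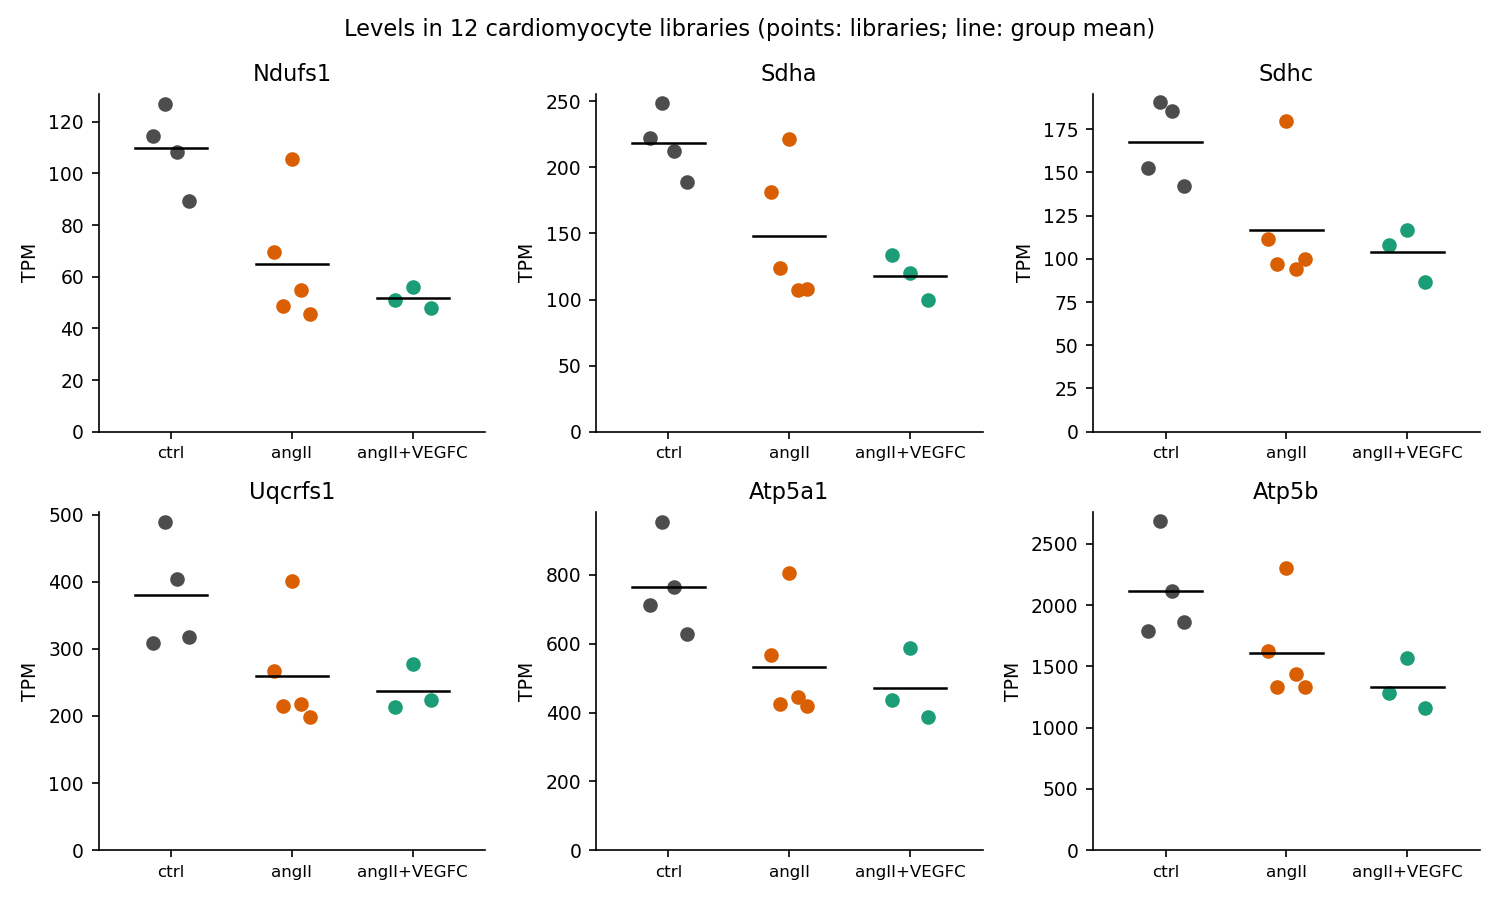
TPM of Ndufs1, Sdha, Sdhc, Uqcrfs1, Atp5a1 and Atp5b in each cardiomyocyte library by treatment, with lines for group means and with Uqcrfs1 and Atp5b chosen after their values were seen. The 3 angII+VEGFC libraries lie below the 4 ctrl libraries for each gene, and angII mouse 14 lies with ctrl.

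Other values moved with treatment in cardiomyocytes. The contractile marker Tnni3 had a median of 3737 TPM in ctrl, 2134 in angII and 2022 in angII+VEGFC libraries. Myh6 and Tnnt2 also had lower medians in both treated groups, while Actc1 went the other way (2403, 2538 and 3079 TPM). Myl2 and Myl3 had higher medians than ctrl in angII and lower ones in angII+VEGFC, and those of Actn2 were 297, 250 and 300 TPM. Fibroblast markers summed to 2371 to 3452, 3924 to 5537 and 3307 to 6450 TPM, and leukocyte markers to 427 to 566, 616 to 1296 and 647 to 1403 TPM. Erythroid markers summed to 9857 to 20377.5, 8953 to 22427 and 13536 to 24892 TPM, with overlap among groups. The sum of all 10 cardiomyocyte markers overlapped among groups (24327 to 54417, 18902 to 89014 and 25527 to 47114 TPM), with Nppa its largest part. Members with a longer transcript had lower differences, with a median of -0.39 for the 42 members above 861 bases and -0.15 for the other 41 in angII+VEGFC against ctrl. The corresponding medians for angII against ctrl were -0.25 and -0.15. The part of these values in the lower levels was not tested.

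Among the muscle forms, Cox6a2 was at 1418, 2643, 2213 and 1798 TPM in ctrl, at 1204, 1428, 2386, 1753 and 1490 in angII, and at 1035, 2034 and 1141 in angII+VEGFC libraries, with overlap throughout. Cox7a1 was at 769 ± 251 TPM (n = 3) in angII+VEGFC and 1205 ± 306 (n = 4) in ctrl libraries, with overlap (difference -0.64, SE 0.28, adjusted p = 0.348 by limma). The shares of these forms in their pairs were lower in angII+VEGFC than in ctrl libraries without overlap, at 62.0 to 72.0% against 74.6 to 82.7% for Cox6a2 and at 52.6 to 59.4% against 60.2 to 64.6% for Cox7a1. The share of Cox8b overlapped (39.3 to 57.5% against 50.2 to 57.7%), and the shares were not tested. The 1 nuclear member higher at an unadjusted p under 0.05 was Ndufa4l2 (112 ± 12.7 TPM, n = 3, against 82.1 ± 5.93, n = 4, difference 0.43, adjusted p = 0.347 by limma).

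The mitochondrial sum was 246886, 216556, 241405 and 268147 TPM in ctrl, 201669, 256735, 137385, 230873 and 220394 in angII, and 200541, 134488 and 244849 in angII+VEGFC libraries. The groups overlapped, and 0 mitochondrial members reached an unadjusted p under 0.05.

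Related genes were examined in cardiomyocytes. All 13 tricarboxylic acid cycle enzymes were lower in angII+VEGFC than in ctrl at an unadjusted p under 0.05 (median -0.75), beside 4.70% of all genes. Their smallest adjusted p was 0.0957 by limma, so none passed. For angII, 4 of 13 were lower at that unadjusted threshold (median -0.41), beside 1.85% of all genes. Mitochondrial ribosomal proteins had a median of 0.00 for angII+VEGFC with 1 of 78 lower at an unadjusted p under 0.05, and assembly factors -0.06 with 3 of 43. Among regulators, 3 of 13 were lower (median -0.30, smallest adjusted p 0.0694 by limma). The difference in response between cardiomyocytes and BECs was tested for angII+VEGFC against ctrl. At an unadjusted p under 0.05, 9 nuclear members had a lower and 2 a higher response in cardiomyocytes, beside 2.26% and 5.62% of all genes, and Ndufs1 was at -1.09 (adjusted p = 0.312 by limma), so a difference in response was not shown.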

How the data were processed

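RNA of sorted endothelial cells and pelleted cardiomyocytes (Smart-Seq ultra low input and Nextera XT, no strand information) was sequenced in 48 libraries, 12 for each of 4 populations. The authors aligned reads to GRCm38 and quantified them against Ensembl transcripts, and the deposited TPM values, each a share of its library, are summed per gene, with 1 column for each library. The submitters' processing notes name STAR 2.5.3a and Salmon 0.12.0. Library totals were 997657 to 999929 TPM, and 54723 of the 54752 genes matched a symbol in the annotation.

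The members and lists were chosen with earlier results of these data known. Symbols that met the rule but were not protein coding (12) were left out. Groups came from the labels. Genes that reached 1 TPM in 3 libraries were tested on log2(TPM + 1) with limma 3.58.1 (R 4.3.3, trend) and adjusted by Benjamini-Hochberg over all genes, with a threshold of 0.05. Differences are on this scale, which understates those of low genes. Treatment fits had age and, for endothelial cells, sequencing batch as covariates, and population fits had treatment and age, with batch between endothelial populations. Interactions compared treatment differences between populations. Separate mice are the replicates of a group. The labels give the same mouse for libraries of several populations. Deviations of same-mouse libraries from their group means correlated at a mean of 0.029 (-0.196 to 0.213) for cardiomyocytes and BECs, 0.082 (-0.024 to 0.249) for heart LECs and BECs, and 0.053 (-0.089 to 0.167) for both LECs. No pair of libraries correlated above 0.986, so none was treated as a duplicate.

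Near-identical copies were found with blastn 2.17.0 (95% identity, 80% coverage, at least 100 bases). Promoters were matched by symbol and position. Named genes were the mitochondrial members with the highest and lowest level, the isoform sets, the highest and lowest nuclear member of each complex, the 3 largest and 3 smallest differences of each population comparison, the 3 smallest p of each treatment comparison and any member called by treatment. Of the genes that this rule selects, 1 is not reported here. Others in the text are members called, uncalled or lower in a population comparison, or were chosen after their values were seen (Atp5g1 to Atp5g3, Ndufb4, Ndufa7 and those of the catalytic subunit plot). The scripts were tested on simulated data. Alternatives were another pseudocount, no filter, no covariates, rescaling, quantile normalization, fits of subsets, other covariates, a mouse block and leaving out each library. Python 3.11.15, numpy 2.4.6, pandas 2.3.3 and matplotlib 3.10.9 were used.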

Additional observations from a re-analysis of the deposited data

Results flagged for a closer look

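In 9 of 72 groups of 4 or 5 libraries, 1 library stood apart from the rest by Dixon's test at 95%, where chance alone gives about 1 in 20. None of these was weighed further. The summed level of nuclear members was 26567.5 TPM in the BECs of ctrl mouse 9 and 21285.2 to 21928.9 in the other 3 ctrl mice. The mitochondrial sum was 32062.0 TPM in the diaphragm LECs of angII mouse 4, the mouse without heart libraries, and 13077.3 to 16705.2 in the other 4 angII mice.

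The remaining cases were shares of an isoform in its pair. Cox6a2 made up 5.45% in the heart LECs of ctrl mouse 9 and 0.783 to 1.11% in the others. Cox7a1 made up 10.3% in the diaphragm LECs of ctrl mouse 5 and 0.306 to 0.775% in the others. In the heart LECs of angII mouse 3, Cox4i2 made up 4.75% (others 0.828 to 1.71%) and Ndufa4l2 24.1% (others 4.44 to 7.75%). Ndufa4l2 made up 7.88% in the diaphragm LECs of ctrl mouse 9 and 0.122 to 0.567% in the others. The share of Cox6b2 was 1.37% in the BECs of angII mouse 14 and 0.194 to 0.452% in the others, and that of Cox7b2 was 32.4% in the diaphragm LECs of angII mouse 4 and 0.570 to 5.67% in the others.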

How the results depend on the processing

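Depth is unknown for TPM, so the precision of low genes could not be given. The higher calls in cardiomyocytes against BECs (73 nuclear and 13 mitochondrial) were the same in number in every fit that left out 1 library. Rescaling without copies, the single-batch fits, the alternatives for Ndufaf6 and the left-out libraries of population comparisons and of the difference between LECs were chosen after seeing the data. With the mouse as a replicate block, pairing libraries of the same mouse, counts were 73 nuclear members higher, 2 lower and 13 mitochondrial members higher for cardiomyocytes against BECs, 44 higher and 5 lower (mitochondrial 1) for heart LECs against BECs, and 3 and 11 for heart against diaphragm LECs, and the block moved no count by over 1.5 times.

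For cardiomyocytes against BECs, the count of lower nuclear members was 1 after rescaling without mitochondrial genes, rescaling without copies as well, quantile normalization and no filter (1 to 2 with libraries left out). The nuclear median was 1.33, 1.59 and 1.58 in the first 3 of these, the mitochondrial median 2.5 after quantile normalization, and the ratio of nuclear sums 2.62 and 3.10 after the 2 rescalings. In the same order, Cox7a2l turned to 0.29, 0.55 and 0.67 and Cox8a to 0.27, 0.54 and 0.37.

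For heart LECs against BECs, higher and lower nuclear members numbered 7 and 2 in ctrl libraries and 9 and 3 in batch 1. Mitochondrial members higher numbered 0 with no filter, quantile normalization, ctrl libraries and batch 2, and lower 1 in ctrl libraries and in batch 2 (0 to 2 and 0 to 1 with libraries left out). In ctrl libraries, Cox6a2 turned to -0.99, Cox8b to -0.43 and mt-Nd3 to -0.13, and in batch 2 Cox7a1 turned to 0.21. For heart against diaphragm LECs, nuclear calls numbered 0 in ctrl libraries, 0 in batch 1 and 2 in batch 2 (2 to 5 with libraries left out), and mitochondrial calls 2 with no filter, 0 in ctrl libraries, 0 in batch 1 and 4 in batch 2 (3 to 11). Subset fits had fewer samples. The cause of the other changes was not tested.

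For angII+VEGFC against ctrl in cardiomyocytes, lower calls numbered 3 and 7 after the 2 rescalings, 9 after quantile normalization, 2 with the first residual component and 1 with the count of detected genes as a covariate (0 to 2 with libraries left out, 2 without angII mouse 14 and 1 without angII+VEGFC mouse 8). For angII against ctrl there was 1 after quantile normalization (0 to 1). In heart LECs, the nuclear median was 0.083 for angII against ctrl and -0.14 for angII+VEGFC against angII with detected genes as a covariate. With libraries left out, the medians for angII+VEGFC against angII were -0.10 to 0.18 (nuclear) and -0.054 to 1.31 (mitochondrial), the nuclear median against ctrl was -0.13 to 0.12, and mitochondrial calls against ctrl were 0 to 8. For the difference between heart and diaphragm LECs in angII+VEGFC against angII, mitochondrial calls were 0 to 1 with libraries left out.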
